A study of Homo sapiens with 10 samples.

Results

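The genes that encode the proteins of the cytosolic ribosome were examined for peaks of the corepressors RCOR1, RCOR2 and RCOR3 and of the histone demethylase LSD1 (gene symbol KDM1A). The members are the protein-coding genes on chromosomes 1 to 22 and X whose symbol is RPL or RPS followed by digits and at most the letters A, X or L, together with RPLP0, RPLP1, RPLP2 and RPSA. The rule gave 82 of 19974 genes, 50 of the large and 32 of the small subunit. Binding was mapped by ChIP-seq, the sequencing of DNA precipitated with a chromatin protein, in the cell line Kelly, which stems from an adrenergic, MYCN-amplified neuroblastoma. Each of 5 groups has 2 libraries. RCOR1 and RCOR3 were precipitated with their own antibodies from untreated cells. RCOR2 carried a FLAG tag (3xF in the labels) and was precipitated with a FLAG antibody from cells given doxycycline at 2 µg/mL for 48 h, which switches the tagged protein on. The same cells without doxycycline, precipitated with the same antibody, form the uninduced FLAG group, which serves as background. LSD1 was precipitated with its own antibody from a different Kelly line, labelled shRUNX1T1, in which doxycycline switches on a short hairpin RNA to RUNX1T1; none was given. The labels give 48 h for the untreated groups as well. RCOR2 was thus measured as an induced, tagged transgene and LSD1 in other cells, so protein, antibody and cells cannot be told apart between groups. The lists hold no expression values, and the labelled cell type was not checked against markers here.

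Ribosomal proteins surround the ribosomal RNA in the small subunit, which decodes the message, and the large subunit, which joins amino acids. Their genes are among the most actively transcribed by RNA polymerase II, mostly from CpG-rich promoters without a TATA box. Their mRNAs begin with a cytosine followed by a run of pyrimidines, the 5′ terminal oligopyrimidine (TOP) tract, through which mTOR signalling controls their translation. RCOR proteins, also called CoREST, join LSD1 to histone deacetylases, and the complex is best known for the repression of neuronal genes at sites of REST.

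A region of a group is a merged peak that holds at least 1 peak of each of its 2 libraries. A gene has a region or a peak when it overlaps the 2 kb on either side of either end of the gene. The fold of a peak is the authors' own value, and ranks of folds are given within 1 library. The libraries held 10253 to 75643 peaks on the chromosomes used. RCOR1 replicate 1 had 49250 peaks and replicate 2 had 18297, and the induced RCOR2 libraries had the most, with 75643 and 59726. Read depth is unknown. Intervals in brackets are Wilson 95% intervals of a share and cover counting error only. No test was made over the members, because they were chosen with results of these data known. Shares are given beside those of all genes.

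The RefSeq promoter set used here gives a start and the letters around it for 65 of the 82 members, and the rest are not in that set. The letters from 80 bases before to 20 bases from the listed first base are shown for genes that span the range of signal described below. RPL7A and RPS16 had among the highest RCOR2 folds, RPS3A the highest ranks of RCOR1 and RCOR3, RPL18 regions of all 4 proteins and RPL35A regions of RCOR2, RCOR3 and LSD1. RPL34 had no region of any of the 4 proteins, and RPS9 had no peak in any library. Capitals mark the pyrimidines that run from the listed first base, and the sequences are from RefSeq on GRCh38.p14, 5′ to 3′ in the direction of the gene.
RPL7A: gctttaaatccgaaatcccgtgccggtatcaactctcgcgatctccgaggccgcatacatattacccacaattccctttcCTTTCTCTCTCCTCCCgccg
RPS16: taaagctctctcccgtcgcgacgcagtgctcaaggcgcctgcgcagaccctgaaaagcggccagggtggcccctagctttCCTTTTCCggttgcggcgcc
RPS3A: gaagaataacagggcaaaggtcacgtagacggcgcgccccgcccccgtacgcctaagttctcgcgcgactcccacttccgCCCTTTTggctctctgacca
RPL18: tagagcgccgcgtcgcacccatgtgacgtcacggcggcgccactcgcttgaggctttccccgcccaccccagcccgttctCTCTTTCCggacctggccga
RPL35A: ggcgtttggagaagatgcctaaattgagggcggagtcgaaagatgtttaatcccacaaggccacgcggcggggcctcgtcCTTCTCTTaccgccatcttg
RPL34: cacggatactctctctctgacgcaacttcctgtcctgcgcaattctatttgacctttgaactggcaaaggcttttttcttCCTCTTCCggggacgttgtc
RPS9: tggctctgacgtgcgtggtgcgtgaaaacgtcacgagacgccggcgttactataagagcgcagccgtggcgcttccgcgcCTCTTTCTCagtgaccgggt
The stretches lie at chr9:133348138-133348237 (plus strand) for RPL7A, chr19:39435930-39436029 (minus strand) for RPS16, chr4:151099548-151099647 (plus strand) for RPS3A, chr19:48619159-48619258 (minus strand) for RPL18, chr3:197950110-197950209 (plus strand) for RPL35A, chr4:108620496-108620595 (plus strand) for RPL34 and chr19:54200778-54200877 (plus strand) for RPS9. Each spans the end of the upstream promoter and the first bases of the 5′ UTR in the first exon.

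All 7 printed genes begin with a cytosine and a run of 7 to 16 pyrimidines, whether or not peaks lay there. Over the 65 members, 42 (64.6%) had a cytosine as first base and at least 5 pyrimidines from it, against 4.60% of the 15813 genes with a listed start. The tract was found at 17 of the 28 of these members with an RCOR1 region (60.7%) and at 25 of the 37 without one (67.6%). It was found at 37 of the 58 with an RCOR2 region (63.8%) and at 5 of the 7 without one (71.4%). The tract was thus about as frequent in members with and without a region. In the 300 bases from 250 before to 50 after the start, both strands searched, the ETS core CCGGAAG lay in 22 members (33.8%, all genes 14.2%). The GC box GGGCGG lay in 37 (56.9%, all genes 58.5%), the MYC E-box CACGTG in 3 (4.62%, all genes 8.87%) and the TATA box TATAAA in 6 (9.23%, all genes 9.64%). The YY1 core AAGATGGC lay in 6 members (9.23%, all genes 3.91%). The ZBTB33 box lay in RPL17, RPL26, RPS6 and RPS19 (6.15%, all genes 0.670%). The GC box and the pyrimidine tract share letters in RPS3A, and a match is a match of letters only.

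RCOR2 peaks lay within 2 kb of an end of nearly every member. An RCOR2 region was found at 75 of the 82 genes, 91.5% (83.4 to 95.8%), where 70.8% of all genes had one. It was found at 46 of 50 large-subunit and 29 of 32 small-subunit genes. The share in members was close to that of genes with a CpG-rich promoter: 94.0% of the 50 CpG-rich members and 92% of all 9461 such genes had a region. Ranks were somewhat below those of other genes with a peak. The highest fold at a member had a median of 11.6 in replicate 1 (3.58 to 29.9) and 13.8 in replicate 2 (4.78 to 69.1), and the medians over all genes with a peak were 12.7 and 22.9. In replicate 1 the median member stood at percentile 85.0 of all peaks of that library, the median gene at 87.0 and the median gene with a CpG-rich promoter at 89.0. In replicate 2 these were 76.9, 85.3 and 87.8. Among genes with a region of at least 1 of the 4 proteins, 96.2% of members and 98.4% of all had RCOR2. With equal numbers of top peaks from every library (10253), the order turned: 22 members (26.8%) and 31.8% of all genes had a region. Across the 76 members with a peak in both induced libraries, Spearman's rho between the replicates' folds was 0.687, a description over genes that share 2 libraries.

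**Figure D1:**
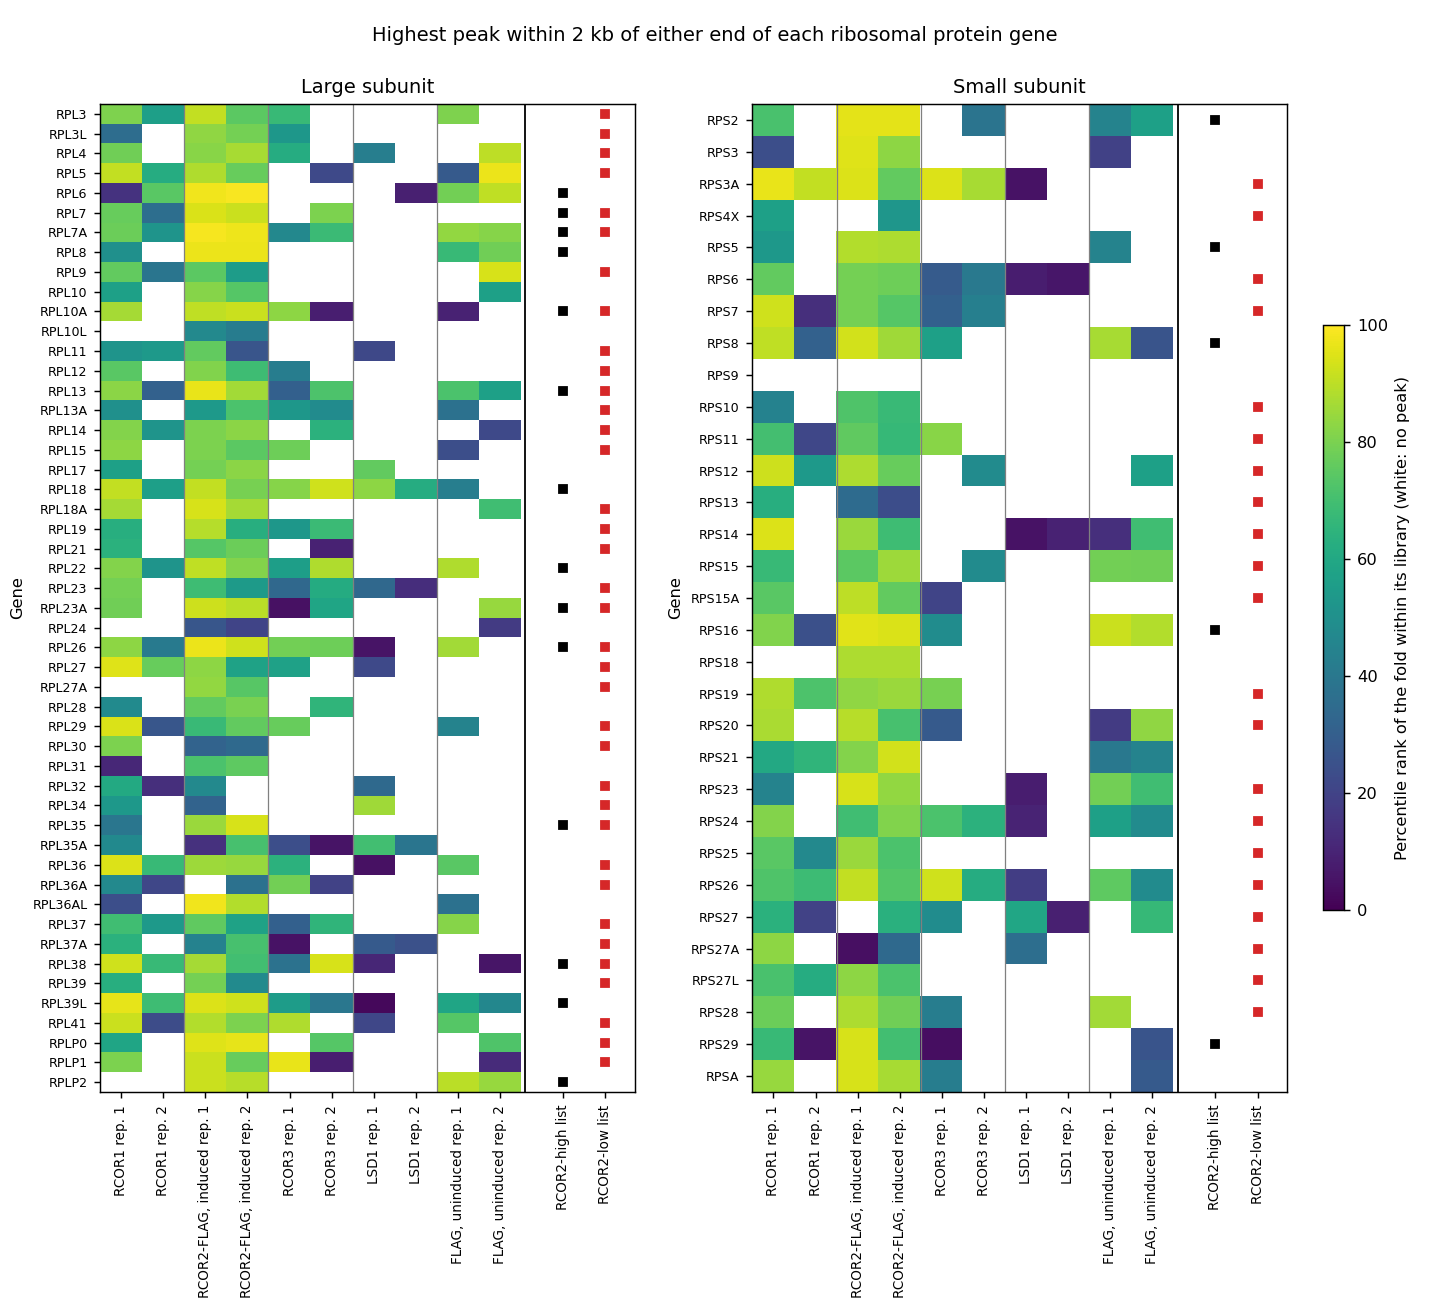
Highest peak within 2 kb of either end of each of 81 of the 82 genes (rows) in the 10 libraries (columns), coloured by the percentile rank of its fold within that library; white is no peak, and squares mark genes with a region of the RCOR2-high (black) or RCOR2-low (red) list. The induced RCOR2 columns are filled for 77 and 78 of the genes drawn and LSD1 replicate 2 for 8, and the RPS9 row is empty.

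The highest RCOR2 ranks were those of RPL6, RPL7A, RPL8, RPS2, RPLP0 and RPS16. RPL6, a large-subunit protein, had folds of 27.1 and 69.1 in the induced replicates 1 and 2. RPL7A, whose gene hosts small nucleolar RNAs and shares its promoter region with MED22, had 29.9 and 55.8. RPL8, a protein near the peptidyl transferase centre, had 24.4 and 53.7. These 3 genes stood high in both libraries. RPS2, a protein of the mRNA entry channel, had 22.1 and 47.8, and RPS16, which contacts the initiator tRNA, had 21.2 and 42.3. RPLP0, the base of the stalk that recruits elongation factors, had 20.5 and 50.4. Each of the 6 also had a peak in at least 1 uninduced FLAG library, at folds of 4.94 to 7.78. Without an uninduced peak, the highest by the lower of their 2 ranks were RPL7 (19.4 and 35.6), RPS18 (13.3 and 26.6), RPL35 (11.6 and 40.9) and RPS19 (10.9 and 22.3).

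Most RCOR2 summits lay at the start of the gene, and some stood far from the listed start. Of the summits of the highest peaks at members with a listed start, 83.6% (51 of 61) in replicate 1 and 87.1% (54 of 62) in replicate 2 lay within 500 bp of it, against 68.2% and 71.5% over all genes. Of 73 RCOR2 regions at members with a listed start, 56 lay within 500 bp of it, 13 of them also within 500 bp of another gene's start. A further 7 lay only at the start of another gene and 10 at no listed start. The strong RPLP0 peaks stood at 6313 and 6299 bp downstream of its start, next to GCN1, and its own start had folds of 7.24 and 7.97. The RPS18 summits stood 5110 and 5049 bp downstream, near B3GALT4, with no RCOR2 peak at the RPS18 start. RPL4 (7127 and 7074 bp, at the start of SNAPC5) and RPL17 (5291 and 5355 bp, near C18orf32) also had distant summits. Their start folds were 5.30 and 4.79 at RPL4 and 7.74 and 5.85 at RPL17. RPS18 lies on chromosome 6, for which the induced lists hold 584 and 475 peaks on alternate contigs. These were not used, and their part in the missing RPS18 start peak was not tested. At RPL6 the summits stood at -7384 and -7474 bp. The listed RPL6 start lies 7393 bp inside the gene model, whose 5′ bound is the place of the peak and the side of PTPN11. RPL6 was the only member whose listed start lay more than 500 bp inside its model.

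**Figure D2:**
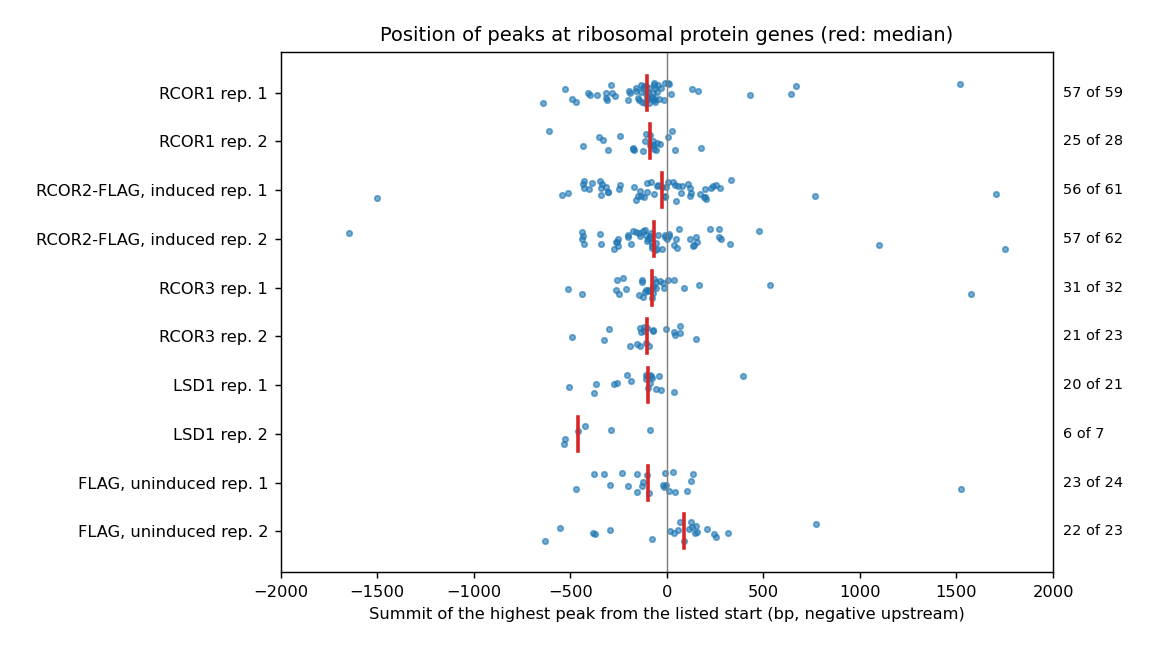
Distance in bp from the listed start to the summit of the highest peak at each member (points, negative is upstream) in each library, with the median of all points in red and the number drawn of the number measured at the right; points beyond 2000 bp are not drawn. In 9 libraries the median lies between -105 and 87 bp, and in LSD1 replicate 2, with 7 points, at -463 bp.

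The deposited lists named RCOR2-high and RCOR2-low divide the members unevenly. The sources used here do not state how the authors defined them. An RCOR2-low region lay at 57 members, 69.5% (58.9 to 78.4%), where 27.2% of all genes had one. An RCOR2-high region lay at 19, 23.2% (15.4 to 33.4%), where 31.6% of all genes had one. Only RCOR2-low regions were found at 49 members, only RCOR2-high regions at 11, both at 8 and neither at 14, where all genes had 20.8%, 25.1%, 6.45% and 47.6%. The order was the same among genes of like promoter type and among genes with RCOR2. Among genes with a CpG-rich promoter, 74.0% of members and 32.6% of all had RCOR2-low, and 22% and 47% RCOR2-high. Among genes with an RCOR2 region, 69.3% of the 75 members and 35.9% of all 14138 had RCOR2-low, and 25.3% and 44.6% RCOR2-high. The 44 members with no other gene's end in the window had 72.7% RCOR2-low and 15.9% RCOR2-high. With regions that hold an uninduced FLAG peak left out, RCOR2-low remained at 38 members (46.3%, all genes 21.7%) and RCOR2-high at 3 (3.66%, all genes 11.9%). These shares rest on lists without replicates and were not tested.

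The RCOR2-low regions at members were closer to those at gene ends in general than to the list as a whole. Of the 66 such regions, 50 (75.8%) overlapped peaks of both induced libraries and 3 (4.55%) of neither, where of all 24637 RCOR2-low regions 33.1% overlapped both and 46.0% neither. At any gene's end the figures were 69.0% and 16.2%. An LSD1 region lay in 7.58% of those at members, in 10.5% at any gene's end and in 40.2% of all. The median width was 901 bp at members, 774 bp at any gene's end and 529 bp in the whole list. The widest stood at RPL36 (2783 bp), RPS7 (1707 bp), RPL3 (1655 bp), RPS19 (1385 bp), RPLP1 (1378 bp), RPL19 (1369 bp) and RPL15 (1339 bp). RPS7 had folds of 9.40 and 12 in the induced libraries, RPL3 15.8 and 12.5 and RPLP1 16.6 and 13.8. By list, the median fold in induced replicates 1 and 2 was 10.2 and 12 for the 49 members with RCOR2-low only, 19 and 29.8 for the 11 with RCOR2-high only and 18.2 and 35.4 for the 8 with both. These are the highest folds at each gene, whether or not the peak lay in a listed region. The ranges overlapped, from 3.58 to 20.5 with RCOR2-low only and from 13.8 to 27.1 with RCOR2-high only in replicate 1. In replicate 2 they overlapped more, from 4.78 to 50.4 with RCOR2-low only and from 10.4 to 69.1 with RCOR2-high only. The 20.5 is that of the RPLP0 peak next to GCN1, outside the RCOR2-low region at the RPLP0 start. The 15.8 of RPL3, inside its RCOR2-low region, also lay in the overlap of replicate 1, as did the 16.6 of RPLP1 and values of other members. The members with both were RPL7, RPL7A, RPL10A, RPL13, RPL23A, RPL26, RPL35 and RPL38, all of the large subunit, to which 50 of the 82 members belong. At each the regions of the lists lay apart. The RCOR2-low region of RPL26 lay at the start of KRABD2 and the RCOR2-high region of RPL38 at that of TTYH2.

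**Figure D3:**
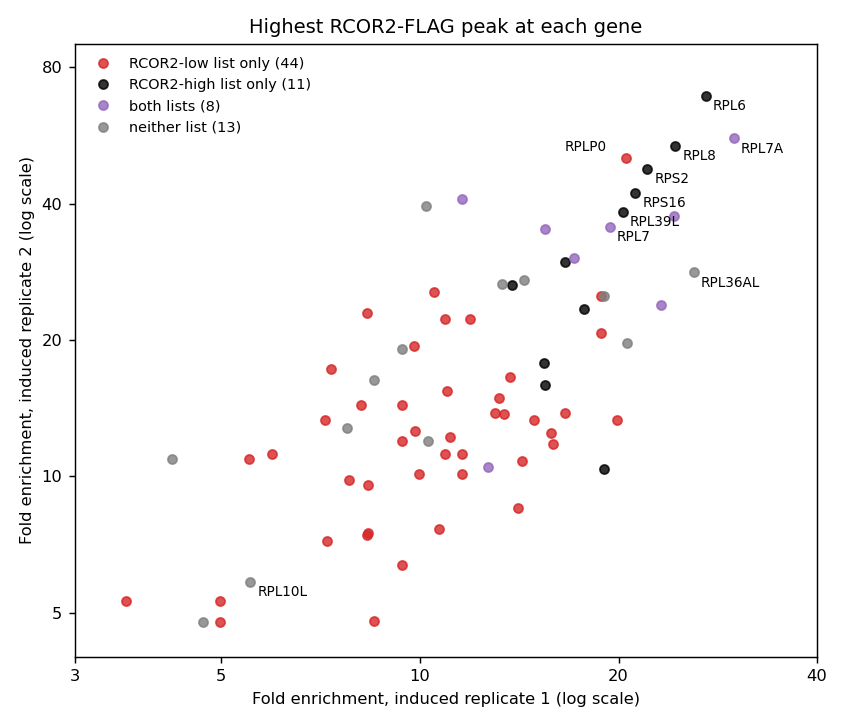
Fold of the highest RCOR2-FLAG peak at each of the 76 members with a peak in both induced libraries, replicate 1 against replicate 2 (both axes logarithmic), coloured by list. The 11 members with RCOR2-high only start at 13.8 in replicate 1 and overlap the members with RCOR2-low only. The latter reach 20.5 at RPLP0, by a peak outside its RCOR2-low region.

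Uninduced FLAG peaks were frequent at members, and their values stand beside the counts of RCOR2, RCOR1 and RCOR3. An uninduced region lay at 14 members, 17.1% (10.5 to 26.6%), where 5.77% of all genes had one. A peak of at least 1 uninduced library lay at 47 members (57.3%, all genes 30.7%), at 33 in replicate 1 (all genes 24.6%) and 31 in replicate 2 (all genes 14.6%). Of the 96 RCOR2 regions at members 53.1% held an uninduced peak, of the 15484 at any gene's end 32.4%. An RCOR2 region without any uninduced peak at the gene was found at 30 members, 36.6%, where 40.7% of all genes had one. With the libraries titled replicate 2 left out, the order turned, at 54.9% of members and 50.8% of all genes. With regions holding an uninduced peak left out, 40 members (48.8%) and 48.9% of all genes had an RCOR2 region, so the excess over all genes was gone. This filter takes more of the RCOR2-high than of the RCOR2-low regions. Uninduced peaks lay in 85.0% and 39.4% of those at members, and in 62.6% and 20.1% of those at any gene's end. Whether uninduced peaks there reflect background or the tagged protein was not tested. The uninduced ranks were highest at RPS16 (folds of 7.78 and 7.08), RPLP2 (7.39 and 6.60), RPL7A (6.61 and 6.39) and RPL6 (6.22 and 7.47). At RPS16 the induced folds were 21.2 and 42.3 and at RPLP2, a stalk protein, 16.6 and 29.8. Over the 17 members with a peak in both uninduced libraries, Spearman's rho of the folds was 0.164.

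RCOR1 regions lay at fewer members than RCOR2 regions. They were found at 34 members, 41.5% (31.4 to 52.3%), where 30.5% of all genes had one, and at 20 of 50 large-subunit and 14 of 32 small-subunit genes. Single libraries differed widely: replicate 1 had a peak at 76 members (92.7%, all genes 56.8%) and replicate 2 at 35 (42.7%, all genes 34.4%). The median width of these peaks was 626 bp in replicate 1 and 158 bp in replicate 2. When both peaks had to cover 50% of each other, 2 members (2.44%) and 5.63% of all genes were left, which turns the order. With regions holding an uninduced FLAG peak left out, 12 members (14.6%) and 14.8% of all genes had an RCOR1 region. Among the highest ranks were those of RPS3A, a small-subunit protein near the mRNA exit (folds of 12.7 and 7.88 in replicates 1 and 2), RPL27 (11.7 and 6.40) and RPS19 (8.72 and 6.30). RPL27 and RPS19 are among the ribosomal proteins mutated in Diamond-Blackfan anaemia, a failure of red cell production. Summits lay upstream of the start, with a median of -104 bp in replicate 1 and -88 bp in replicate 2. Of the 34, 31 also had an RCOR2 region (37.8% of members, all genes 29.8%), and RPL32, RPL36A and RPS27 did not. The order for RCOR1 with RCOR2 turned with regions holding an uninduced peak left out (9.76%, all genes 12.6%), with equal numbers of top peaks (3.66%, all genes 6.69%) and with 50% reciprocal overlap (1.22%, all genes 5.27%). It also turned among genes with a region of at least 1 of the 4 proteins (39.7% of members, 41.5% of all), where RCOR1 regions lay at 43.6% of members and 42.4% of all.

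RCOR3 regions were found at 17 members, 20.7% (13.4 to 30.7%), where 10.6% of all genes had one. Each of these 17 also had an RCOR2 region. The same held for most genes with RCOR3 in general: 9.18% of all genes had RCOR1, RCOR2 and RCOR3. A further 1.08% had RCOR2 and RCOR3 without RCOR1 or LSD1. Peaks of replicate 1 lay at 42 members (all genes 20.9%) and of replicate 2 at 30 (all genes 25.9%). The median folds of 4.84 and 5.84 were near those of all genes with a peak, 4.77 and 5.38. RPS3A had folds of 8.40 and 7.46, RPL18 6.17 and 8.80, RPL26 6.06 and 6.65 and RPS24 5.52 and 5.91. RPL26 lies at the peptide exit side of the large subunit and binds p53 mRNA, and RPS24 takes part in 18S rRNA maturation. Their RCOR3 summits lay between -72 and -140 bp at RPS3A, RPL26 and RPS24, and at -441 and -489 bp at RPL18. Regions of RCOR1, RCOR2 and RCOR3 together lay at 11 members (13.4%, all genes 9.18%), and at 2 (2.44%, all genes 2.96%) with regions holding an uninduced peak left out. The order for the 3 together also turned with 50% reciprocal overlap (0%, all genes 1.01%) and with equal numbers of top peaks (0%, all genes 1.87%). Without the libraries titled replicate 1, members and all genes were equal at 19.5%. With regions holding an uninduced FLAG peak left out, RCOR3 regions lay at 6 members (7.32%, all genes 4.89%).

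LSD1 regions were few. They lay at 7 members, 8.54% (4.20 to 16.6%), where 4.17% of all genes had one. Replicate 1 had a peak at 23 members (28.0%, all genes 9.95%) and replicate 2 at 8 (9.76%, all genes 5.52%), although both libraries had about equal numbers of peaks, 19392 and 19667. The highest was RPL18, with folds of 8.45 and 6.66. RPL35A had 6.62 and 5.31, RPS27 5.96 and 3.46, RPL23 4.76 and 3.94 and RPL37A 4.56 and 4.69. RPS6, the substrate of S6 kinase, had 3.07 and 3.06 and RPS14 2.54 and 3.60. The median member stood at percentile 21.8 of all LSD1 peaks in replicate 1 and at percentile 11.4 in replicate 2, and the median over all genes with a peak stood at 17.7 and 33.0. Low ranks thus held for LSD1 at gene ends in general, and members were above all genes in one library and below them in the other. Among LSD1 peaks at gene ends, those at members were close to the start: 90.5% of 21 in replicate 1 and 57.1% of 7 in replicate 2 lay within 500 bp, against 46.6% and 24.8% over all genes. At RPL34 an LSD1 peak of fold 8.89 stood in replicate 1 only. With peaks above each library's median fold, 1 member (1.22%) and 1.32% of all genes had an LSD1 region.

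**Figure D4:**
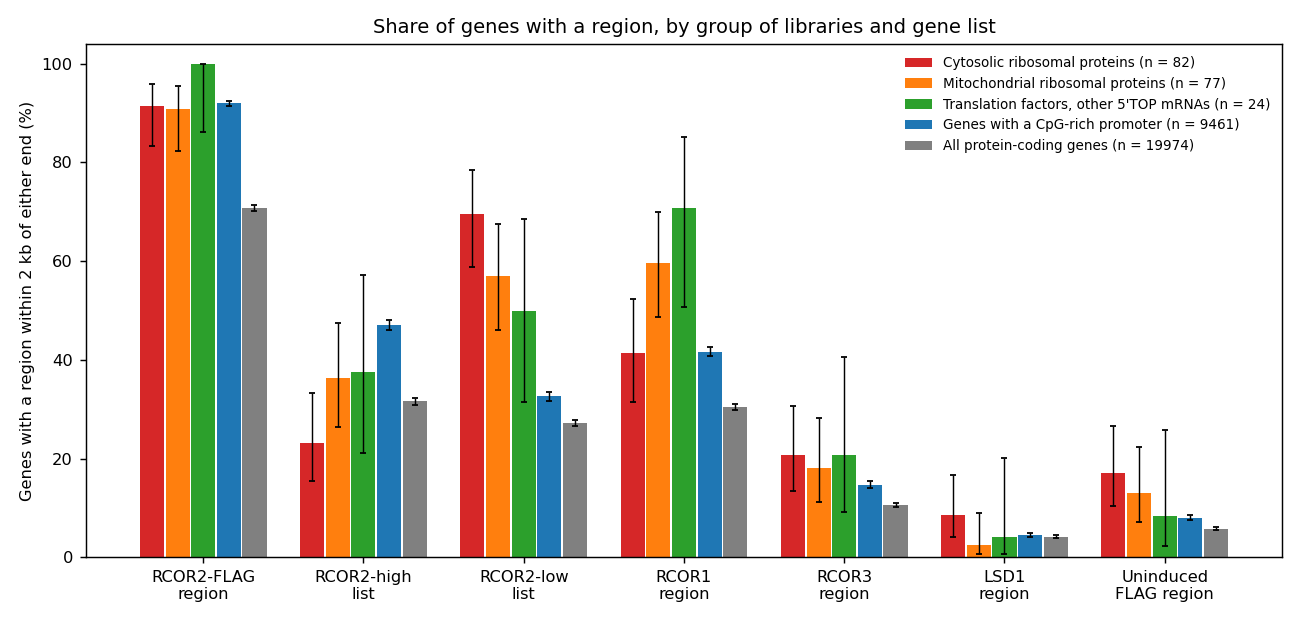
Share of genes (%) with a region within 2 kb of either end, for cytosolic ribosomal protein genes and 4 other sets, with Wilson 95% intervals (counting error only); groups of bars are the 4 proteins, the uninduced FLAG control and the RCOR2-high and RCOR2-low lists. Members have RCOR2 regions at 91.5%, RCOR2-high at 23.2% and RCOR2-low at 69.5%.

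A region of at least 1 of the 4 proteins lay at 78 members (95.1%, all genes 71.9%). By combination of regions, RCOR2 without a region of RCOR1, RCOR3 or LSD1 was the most frequent, at 36 members (43.9%, all genes 39.1%). RCOR1 with RCOR2 was found at 20 (24.4%, all genes 19.5%), with RCOR3 added at 10 (12.2%, all genes 7.56%). All 4 proteins were found at RPL18 alone (1.22%, all genes 1.62%). These combinations depend on the rule that both libraries have a peak, and RCOR1 replicate 2 had 18297 peaks against 49250 in replicate 1. When a peak in either library was enough, RCOR1 with RCOR2 lay at 76 members (92.7%, all genes 57.1%). RCOR2, RCOR3 and LSD1 without RCOR1 were found at RPL23, RPL35A and RPS6 (3.66%, all genes 0.100%). At all 3 of these, RCOR1 replicate 1 had a peak (7.25, 4.97 and 6.80) and replicate 2 had none. RPL23, which binds MDM2, had RCOR2 folds of 7.24 and 7.22, RPL35A 4.21 and 10.9 and RPS6 9.40 and 14.4.

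At 7 members no RCOR2 region was found. RPL32 (5.53) and RPL34 (4.97) had a peak only in induced replicate 1, and RPL36A (5.50), RPS27 (8.69) and RPS4X (6.91), an X-linked gene with a Y-linked counterpart, only in replicate 2. At RPL24 both libraries had a peak, of 4.69 and 4.78, at -430 and -126 bp, which did not overlap. RCOR2-low regions nevertheless lay at RPL32, RPL34, RPL36A, RPS4X and RPS27, which is 5 of the 7. RPS9, a protein of the mRNA entry side, had no peak in any of the 10 libraries. Around it, 11 of the 28 other protein-coding genes within 300 kb had no peak in any library, against 14.4% of genes on chromosome 19. The induced lists hold 176 and 168 peaks on alternate contigs of chromosome 19, which were not used, and their part in this result was not tested.

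Some members are expressed only in particular tissues, or are copies of another member. RPL3L, the striated muscle counterpart of RPL3, had RCOR2 folds of 11 and 15.4 and lies next to MSRB1. The only RCOR2 region counted for RPL3L lay outside the gene, at the start of MSRB1. RPL10L, an intronless testis copy of RPL10, had 5.53 and 5.85 and no peak in the other 8 libraries. RPL39L, a testis-enriched copy of RPL39, had 20.3 and 38.4, with RCOR1 folds of 12.6 and 6.09, and a peak in 9 of 10 libraries. RPL36AL, next to MGAT2, had 26.0 and 28.2 and was on neither list. RPS27L, a p53-induced copy of RPS27, had 10.9 and 11.2 and an RCOR2-low region. RPL10L and RPL39L thus lay near opposite ends of the members' range.

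Members were also counted by roles beyond the ribosome, and the shares may be read beside those of all 82 (RCOR2 91.5%, RCOR1 41.5%, RCOR2-low 69.5% and RCOR2-high 23.2%). The subsets are small and were not tested. Of 20 members mutated in Diamond-Blackfan anaemia, 19 had an RCOR2 region, 11 RCOR1, 15 RCOR2-low and 4 RCOR2-high. Of 10 whose proteins bind MDM2, 9 had an RCOR2 region, 6 RCOR1, 9 RCOR2-low and 1 RCOR2-high. RPL5 and RPL11, which hold MDM2 with 5S rRNA, had RCOR2 folds of 13.4 and 13.7 and of 8.52 and 4.79. RPLP0, RPLP1 and RPLP2, the stalk genes, each had an RCOR2 region and an uninduced peak, and none had an RCOR1 region. The 29 members that host small nucleolar RNA genes and the 53 that do not had RCOR2-low at 72.4% and 67.9%.

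Genes of the other parts of the translation machinery were set beside the members. Of 77 mitochondrial ribosomal protein genes, 70 had an RCOR2 region, 46 RCOR1 (59.7%), 44 RCOR2-low (57.1%) and 28 RCOR2-high (36.4%). Of 24 translation factors and other genes of TOP mRNAs, all 24 had an RCOR2 region, 17 RCOR1 (70.8%), 12 RCOR2-low and 9 RCOR2-high (37.5%). Of 30 ribosome biogenesis factors, 26 had an RCOR2 region, 17 RCOR1, 18 RCOR2-low and 11 RCOR2-high. Of 14 RNA polymerase I genes, 11 had an RCOR2 region, 7 RCOR1, 6 RCOR2-low and 3 RCOR2-high. The RCOR1 share of members (41.5%, 31.4 to 52.3%) was the lowest of these 5 sets, and the RCOR2-low share (69.5%, 58.9 to 78.4%) the highest. The RCOR1 order rests on replicate 2: a peak of RCOR1 replicate 1 lay at 92.7% of members, 90.9% of mitochondrial ribosomal protein genes, 91.7% of translation factors and TOP genes and 86.7% of biogenesis factors. The intervals of members and mitochondrial ribosomal protein genes overlapped on both (48.6 to 70.0% for RCOR1, 46.0 to 67.6% for RCOR2-low). The RCOR2-low share was above the genome-wide 27.2% in each of the 5 sets, and only for RNA polymerase I genes (42.9%, 21.4 to 67.4%) did the interval reach down to it.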

How the data were processed

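ChIP-seq peaks of RCOR1, induced RCOR2-FLAG, RCOR3, LSD1 and uninduced FLAG were taken from 10 deposited per-library lists, with 2 deposited region lists named RCOR2-high and RCOR2-low. Per the submitters' processing notes, BWA 0.7.17, MACS2 and deepTools were used on GRCh38. The authors' peak lists give a fold enrichment at the summit, a ratio over a control that the sources used here do not name, and the -log10 q of each peak, which was deposited by the authors and used here to rank peaks where equal numbers were taken. The authors' reads were not used and depth is unknown, so precision is stated by counts of genes alone. Samples were grouped and numbered by title. Peak names inside the RCOR1, RCOR3 and FLAG lists carry other replicate numbers or letters than the titles in some cases, so a shared number does not pair libraries. The labels do not say that replicates were separate cultures.

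Peaks on chromosomes 1 to 22 and X were kept. Genes and bounds came from RefSeq (GRCh38.p14), and starts and sequences from its promoter table, which holds 65 of 82 members. Per gene and library the highest fold within 2 kb of either end was taken. A CpG-rich promoter had an observed to expected CpG ratio of at least 0.6 and a GC content of at least 55% in the 300 bases around the start. No test was run on members. With 2 libraries against 2, an exact two-sided permutation test cannot go below p = 0.333. The region counting was tested on simulated peaks placed at randomly chosen genes among the 19974. It recovered 100.0% of the genes given a peak in both simulated libraries. Members and lists were chosen with earlier results of these data known. Named genes were those without an RCOR2 region, those highest by the lower of their 2 within-library ranks per group, all with an LSD1 region, the widest RCOR2-low regions, and tissue-restricted or duplicate genes; others were chosen after their values were seen. Some items are not reported here by name, and counts over the members include them. Alternatives were other windows, overlaps, fold minimums, equal peak numbers, backgrounds, and leaving out libraries or uninduced peaks. Tools were python 3.11.15, numpy 2.4.6, pandas 2.3.3, scipy 1.17.1 and matplotlib 3.10.9.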

Additional observations from a re-analysis of the deposited data

How the results depend on the processing

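Of 116 alternative values of the 10 counts of members, 64 moved by no more than 1.5 times and 52 by more; no cause was tested beyond what a setting itself removes. The windows of 5 kb and 500 bp and the rule with at most 1 letter after the digits moved none of the 10 by more. Other backgrounds cannot change a count of members. Among genes with a region of at least 1 of the 4 proteins, the order of members and all genes turned for RCOR2 (96.2% and 98.4%) and for RCOR1 with RCOR2 (39.7% and 41.5%). With 50% reciprocal overlap the counts were 2 for RCOR1, 11 for RCOR3, 3 for uninduced FLAG, 1 for RCOR1 with RCOR2 and 0 for RCOR1, RCOR2 and RCOR3. In that order the member shares were 2.44%, 13.4%, 3.66%, 1.22% and 0%, and those of all genes 5.63%, 6.00%, 2.73%, 5.27% and 1.01%. With a peak in either library the counts, in the same order, were 76, 51, 47, 76 and 51, with LSD1 at 24. The member shares, LSD1 last, were 92.7%, 62.2%, 57.3%, 92.7%, 62.2% and 29.3%. Those of all genes were 58.2%, 33.7%, 30.7%, 57.1%, 32.5% and 11.1%. Keeping peaks over the median fold gave 19, 6, 8, 18 and 4, with LSD1 at 1. With 10253 top peaks per library RCOR1 had 13, RCOR2 22, RCOR3 5, LSD1 3, with 3 for RCOR2 without an uninduced peak, 3 for RCOR1 with RCOR2 and 0 for all 3 RCOR proteins. In that order the member shares were 15.9%, 26.8%, 6.10%, 3.66%, 3.66%, 3.66% and 0%. Those of all genes were 10.4%, 31.8%, 3.75%, 2.23%, 12.4%, 6.69% and 1.87%. Without regions that hold an uninduced peak RCOR1 had 12, RCOR2 40, RCOR3 6, LSD1 4 and RCOR2-high 3. RCOR1 with RCOR2 had 8 and all 3 had 2. The member shares, in that order, were 14.6%, 48.8%, 7.32%, 4.88%, 3.66%, 9.76% and 2.44%. Those of all genes were 14.8%, 48.9%, 4.89%, 3.59%, 11.9%, 12.6% and 2.96%. The 44 members with no other gene's end in the window are fewer by construction. They gave 20 for RCOR1, 40 for RCOR2, 4 for LSD1, 9 for uninduced FLAG, 7 for RCOR2-high and 32 for RCOR2-low. RCOR2 without an uninduced peak gave 17 and RCOR1 with RCOR2 gave 20. Of the 44, in that order, these are 45.5%, 90.9%, 9.09%, 20.5%, 15.9%, 72.7%, 38.6% and 45.5%. All genes, with or without a neighbour, had 30.5%, 70.8%, 4.17%, 5.77%, 31.6%, 27.2%, 40.7% and 29.8%. At gene starts only, and within 500 bp of the listed start (a setting chosen after seeing the data), uninduced FLAG gave 8 and RCOR2-high 10. Of the 65 members with a listed start these are 12.3% and 15.4% in both settings. All genes had 5.50% and 31.5% at gene starts, and 4.84% and 30.6% within 500 bp. Leaving out replicate 1 or replicate 2 gave RCOR1 35 to 76, RCOR2 78 to 79, RCOR3 30 to 42 and LSD1 8 to 23. Uninduced FLAG had 31 to 33, RCOR2 without an uninduced peak 45 to 48, RCOR1 with RCOR2 34 to 73 and all 3 16 to 40. Without replicate 1, in that order, members had 42.7%, 96.3%, 36.6%, 9.76%, 37.8%, 58.5%, 41.5% and 19.5%. All genes then had 34.4%, 75.5%, 25.9%, 5.52%, 14.6%, 61.3%, 34.1% and 19.5%. Without replicate 2, members had 92.7%, 95.1%, 51.2%, 28.0%, 40.2%, 54.9%, 89.0% and 48.8%. All genes then had 56.8%, 75.3%, 20.9%, 9.95%, 24.6%, 50.8%, 54.5% and 20.4%. No paired analysis was possible because these counts come from no test.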

Other observations

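Ribosomal protein genes have many processed pseudogenes, copies of their mRNAs that were inserted elsewhere without a promoter. Of 1962 ribosomal protein pseudogenes listed by RefSeq, 16 (0.815%) overlapped an RCOR2 region, 3 (0.153%) an RCOR1 region and 2 (0.102%) an LSD1 region. Of 14496 other pseudogenes, 1075 (7.42%) overlapped an RCOR2 region, 248 (1.71%) an RCOR1 region and 87 an LSD1 region. The bodies of 72 of the 82 parent genes (87.8%) overlapped an RCOR2 region, and the bodies of all genes were not counted. Within 2 kb of either gene end, 91.5% of members and 70.8% of all genes had one. The median lengths were 536 bp for ribosomal protein pseudogenes, 785 bp for the others and 5013 bp for the members. The shares thus compare stretches of unlike length. How reads that match both a gene and its copies were treated is not stated in the sources used here, and its part in these shares was not tested.

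Folds at members ranked alike in the induced RCOR2 libraries (Spearman's rho 0.687 over 76 genes, 0.763 over all genes) and LSD1 libraries (0.679 over 7 genes), and less so for RCOR1 (0.320 over 35 genes), RCOR3 (0.104 over 21) and uninduced FLAG (0.164 over 17). These are descriptions across genes, which share libraries and are not independent replicates.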
